A study of Mus musculus with 8 samples.

Results

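The genes that encode the proteins of the cytosolic ribosome were followed in hippocampus and cerebral cortex of 12-week-old male mice. The exposed animals were given clothianidin, an insecticide of the neonicotinoid class, which acts on nicotinic receptors for acetylcholine, at 50 mg/kg/day for 2 weeks, a dose that the submitters name as the no observed adverse effect level. The control animals had received the vehicle, which contained 1% DMSO and which the exposed animals received too. There were 8 one-colour Affymetrix arrays in 4 groups of 2, which were exposed hippocampus, control hippocampus, exposed cortex and control cortex. Each array goes by its tissue, its arm and its label's number, 3 or 6 for exposed and 1 or 6 for control arrays.

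Members were taken by their gene symbol alone, as every probe set whose symbol was Rpl or Rps followed by a digit, or Rpsa or Rplp0 to Rplp2, with no use of the measured values. The 6 Rps6k kinases, 1 symbol containing -ps and 7 symbols ending in l were left out. This gave 61 probe sets, 1 for each of 61 genes, out of 19505 genes with a symbol and 22206 probe sets in all. Of these, 22 encode small subunit proteins and 33 large subunit proteins. The other 6 also carry such symbols and are set apart here, namely the like-genes Rpl22l1 and Rpl7l1, the retrogenes Rpl37rt, Rps27rt and Rps23rg1, and Rps19bp1, whose product binds Rps19. Probe sets in the lowest 33.3% by mean log2 value, below 3.94, were left out of the tests, which left 60 members among 14804 probe sets. The member left out was Rps23rg1, with 3.42 and 3.54 in exposed hippocampus, 3.54 and 3.73 in control hippocampus, 3.92 and 4.06 in exposed cortex and 3.89 and 4.56 in control cortex.

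The ribosome is built of a small subunit, which reads the messenger RNA, and a large subunit, which joins amino acids into protein. Each subunit holds a single copy of most of its proteins, and their genes are transcribed strongly in nearly all cells. Many of their messenger RNAs begin with a run of pyrimidines, the TOP motif, through which the mTORC1 kinase pathway controls how much of them is translated. In neurons these messenger RNAs are found in dendrites and axons as well as in the cell body.

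The start regions of members that carry the results below are shown first, because the pyrimidine run at the start is a feature that the symbol rule did not use. RefSeq promoters of assembly GRCm38.p6 were available for 43 of the 55 subunit genes, and the 60 bases around each annotated start are printed from 5′ to 3′ on the gene's strand. Capitals mark runs of at least 8 C or T. The first 6 genes differed between the tissues, Rps19 is the gene with the smallest p for exposure averaged over tissues, and Rpl28, Rps15 and Rps9 are among the 5 genes with the widest gap between exposed arrays over both tissues. The promoter table has no entry for the other two, Rpl29 and Rpl32.
Rpl27, chr11:101442215-101442274, plus strand: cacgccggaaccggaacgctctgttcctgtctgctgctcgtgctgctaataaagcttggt
Rps25, chr9:44407684-44407743, plus strand: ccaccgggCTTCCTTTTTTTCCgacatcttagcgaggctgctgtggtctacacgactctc
Rpl7a, chr2:26910777-26910836, plus strand: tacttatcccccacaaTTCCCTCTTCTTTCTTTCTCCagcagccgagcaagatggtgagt
Rpl14, chr9:120571487-120571546, plus strand: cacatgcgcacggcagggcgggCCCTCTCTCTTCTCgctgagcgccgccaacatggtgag
Rps28, chr17:33824533-33824592, minus strand: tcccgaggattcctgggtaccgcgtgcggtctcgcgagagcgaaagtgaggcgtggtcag
Rps21, chr2:180257349-180257408, plus strand: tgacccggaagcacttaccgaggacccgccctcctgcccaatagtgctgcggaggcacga
Rps19, chr7:24884883-24884942, plus strand: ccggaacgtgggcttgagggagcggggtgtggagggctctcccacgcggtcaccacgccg
Rpl28, chr7:4792935-4792994, plus strand: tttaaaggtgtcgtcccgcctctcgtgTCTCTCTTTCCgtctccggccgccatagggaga
Rps15, chr10:80292401-80292460, plus strand: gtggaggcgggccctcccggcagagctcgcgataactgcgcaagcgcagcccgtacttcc
Rps9, chr7:3704011-3704070, plus strand: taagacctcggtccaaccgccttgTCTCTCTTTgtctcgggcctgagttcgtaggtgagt

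A run of at least 8 C or T lay within 30 bases of the start in 23 of 43 members (53.5%), against 25.8% of the promoters of 27025 genes. In the whole promoter, from 250 bases before to 50 after the start and on either strand, CCGGAAG, letters of the ETS factor motif, stood in 19 members (44.2%) and 9.93% of all genes. On its other strand CCGGAAG reads CTTCCGG, which can share bases with a C or T run. AAGATGGC, letters of the YY1 motif, stood in 3 members (6.98%) and 3.19% of all genes, and TATAAA in 5 members (11.6%) and 15.7% of all genes. The run was 21 bases long in Rpl7a, 14 in Rps25 and Rpl14, 11 in Rpl28 and 9 in Rps9, while Rpl27, Rps28, Rps21, Rps19 and Rps15 had no run of 8 in the window. The run of Rps25 began at base -22 and ended before the annotated start. Where a gene had several annotated starts, the one with the longest run was taken, among members and all genes alike. Genes with and without the run were therefore found among both those that differed between tissues and those that differed between exposed arrays.

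Array medians lay between 5.21 and 5.4 over all probe sets, and the correlation within groups was 0.9867 to 0.9915. The tissue labels matched the marker genes. Prox1, a transcription factor of dentate granule cells, measured 11.34 to 11.96 in hippocampus and 6.44 to 6.87 in cortex, and Tbr1, of cortical projection neurons, 12.31 to 13.17 in hippocampus and 15 to 15.83 in cortex. Hippocampus control 1 and cortex control 6 stood apart in Ttr, the transthyretin gene, a choroid plexus marker. Ttr measured 19.51 in hippocampus control 1 and 15.41 in cortex control 6, against 4.17 to 7.76 in the other arrays. Only hippocampus control 1 was high in the tested choroid plexus markers as a set. Each marker's log2 value was taken minus its mean over all 8 arrays. The median was 5.737 in hippocampus control 1 and -0.389 in cortex control 6, against -1.43 to -0.63 in the other arrays. Whether a group's arrays hold RNA of separate animals is not in the labels, so the p-values reflect the spread between these samples alone, which may be technical.

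Many ribosomal protein genes shifted together from array to array within a group. A member's deviation is its log2 value minus its mean over all 8 arrays. The median deviation of the 60 members was 0.35 in hippocampus exposed 3 and -0.18 in hippocampus exposed 6, against 0.01 in hippocampus control 1 and 0.01 in hippocampus control 6. In cortex it was 0.14 in exposed 3 and -0.14 in exposed 6, against -0.24 in control 1 and 0.06 in control 6. Over all 14804 probe sets the median deviation stayed between -0.08 and 0.08. In each tissue the exposed array numbered 3 was thus the highest in median and the exposed array numbered 6 lay below both hippocampal controls, or, in cortex, between the controls.

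**Figure D1:**
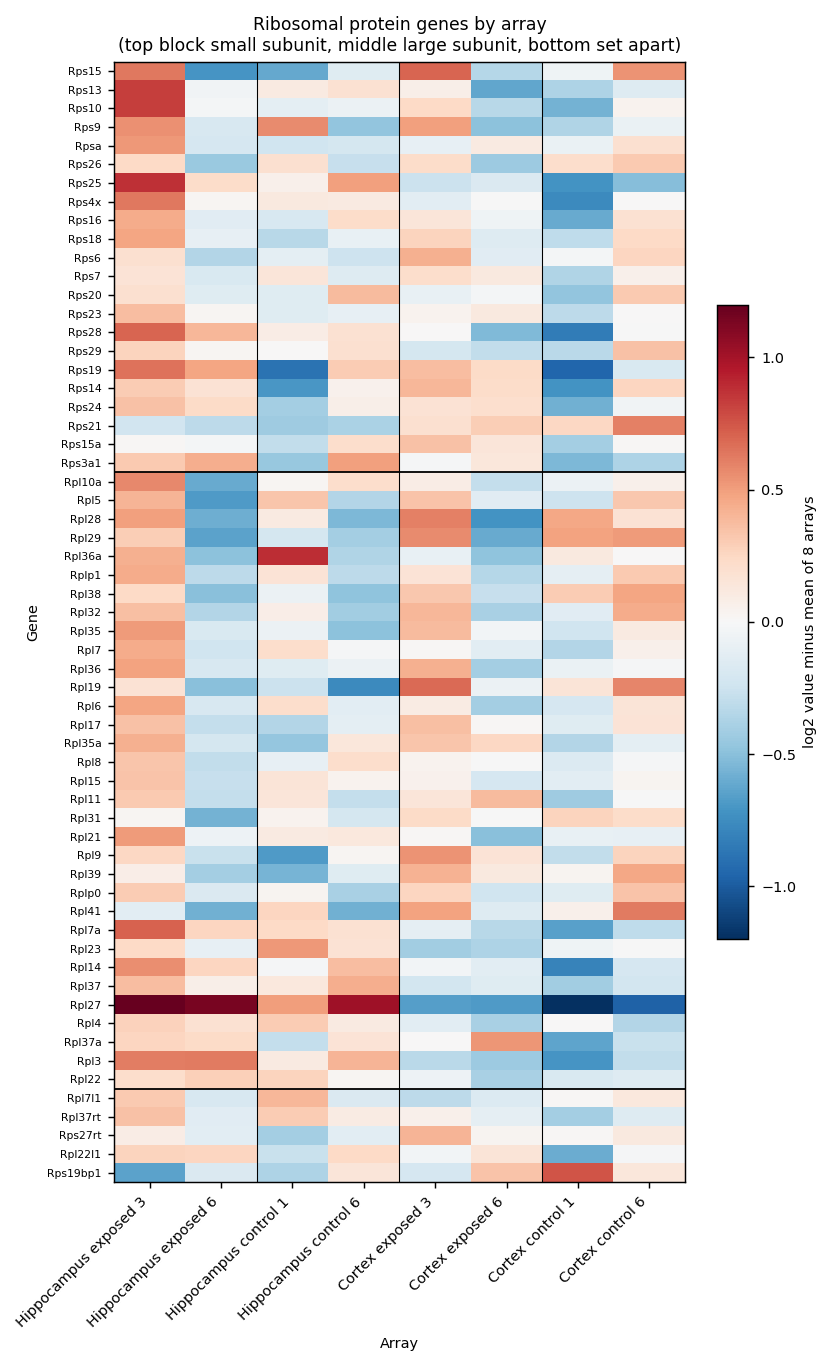
Colour gives each gene's log2 value minus its mean over 8 arrays, with tested genes as rows (small subunit on top, large subunit in the middle, genes set apart at the bottom) and arrays as columns. The column of hippocampus exposed 3 is mostly red (median deviation 0.35) and that of hippocampus exposed 6 mostly pale or blue (-0.18), while the row of Rpl27 separates the tissues.

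Hippocampus exposed 3 exceeded hippocampus exposed 6 in 56 of 60 members, with a median gap of 0.56 on the log2 scale. In cortex, exposed 3 exceeded exposed 6 in 45 of 60 members, with a median gap of 0.24. Among all probe sets the share above 0 was 47.9% in hippocampus and 47.4% in cortex, with a median of -0.02 in each. The gap was above 0 in both tissues in 43 members (71.7%), against 27.3% of all probe sets, and below 0 in both in 2. Across the 60 members the gaps of the tissues correlated at r = 0.65, against 0.28 across all 14804 probe sets, where all points of a tissue share the same arrays. The median of the mean log2 values was 12.98 over the 61 members and 5.31 over all 22206 probe sets. The probe sets set beside the members here were thus not matched to them in signal.

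By subunit, 29 of 33 large subunit genes (median 0.35) and 14 of 22 small subunit genes (median 0.16) had a gap above 0 in cortex. In hippocampus it was 31 of 33 (median 0.62) and 21 of 22 (median 0.44). Mitochondrial ribosomal protein genes, which serve the separate ribosome of that organelle, had a gap above 0 in 56 of 75 in hippocampus (median 0.22) and 48 of 75 in cortex (median 0.13). No test of these differences between gene groups was made.

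Ranked by the smaller of their gaps in the tissues, a ranking chosen after the values were seen, Rpl28, Rps15, Rpl29, Rps9 and Rpl32 came first. Rpl28, a large subunit gene, measured 15.32 and 14.24 in hippocampus exposed 3 and 6, against 14.93 and 14.29 in hippocampus control 1 and 6. In cortex it measured 15.43 and 14.11 in exposed 3 and 6, against 15.29 and 15 in control 1 and 6. Exposed 3 was the highest and exposed 6 the lowest array for Rpl28 in each tissue, so exposed and control arrays overlapped fully.

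Rps15, whose protein lies near the decoding site of the small subunit, measured 16.5 and 15.16 in hippocampus exposed 3 and 6, against 15.25 and 15.72 in hippocampus control 1 and 6. In cortex it measured 16.56 and 15.52 in exposed 3 and 6, against 15.81 and 16.4 in control 1 and 6. The controls again lay between the exposed arrays in both tissues. The exposed arrays also enclosed the controls for Rpl29 in hippocampus (12.05 and 11.11 in exposed 3 and 6, against 11.54 and 11.34 in control 1 and 6) and in cortex (12.32 and 11.15, against 12.23 and 12.26).

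**Figure D2:**
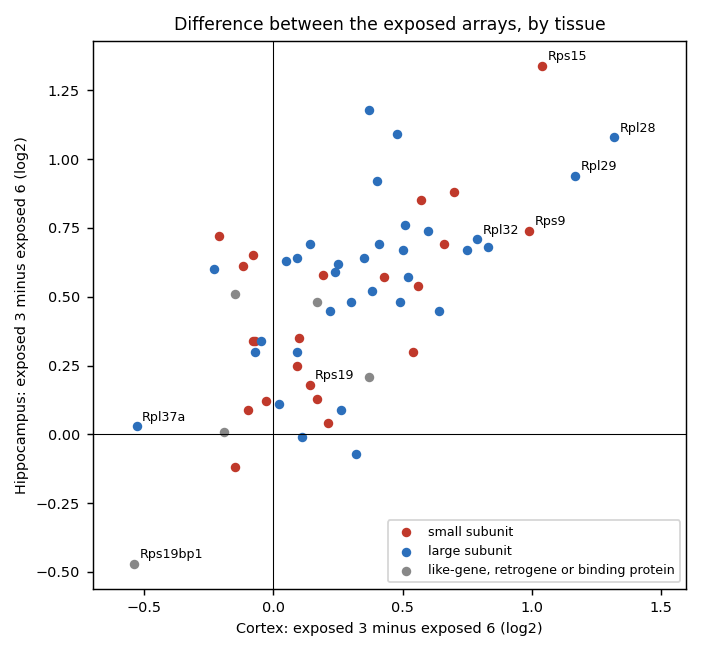
Each point is a gene, with the log2 difference between exposed arrays 3 and 6 in cortex on the horizontal axis and in hippocampus on the vertical axis, coloured by subunit. Most points (43 of 60) lie above 0 on both axes, with Rpl28 at 1.32 and 1.08 and Rps15 at 1.04 and 1.34.

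The control arrays differed among themselves in cortex. Cortex control 6 exceeded cortex control 1 in 54 of 60 members (median 0.36), including 22 of 22 small subunit genes (median 0.48, lowest 0.10), while 45.2% of all probe sets were above 0. In hippocampus control 6 exceeded control 1 in 33 of 60 members (median 0.04), with 17 of 22 small subunit genes and 13 of 33 large subunit genes above 0. Among all probe sets there, 43.8% were above 0 (median -0.07). Rps14, a small subunit gene lost in the human 5q- syndrome, had the widest gap in cortex, 0.97, with 11.7 in control 1 and 12.67 in control 6. In hippocampus its values were 11.72 in control 1 and 12.47 in control 6.

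Ranked within a tissue, hippocampus exposed 3 was the highest of its 4 arrays in 46 of 60 members (76.7%), against 22.7% of all probe sets. Cortex exposed 3 was the highest in 30 of 60 (50%), against 20.5% of all probe sets. The lowest array in cortex was control 1 in 33 members (55%, against 21.8% of all probe sets) and exposed 6 in 22 (36.7%, against 27.9%). In hippocampus it was control 1 in 24 (40%, against 23%) and exposed 6 in 23 (38.3%, against 22.7%). The difference between exposed and control means below therefore rests on arrays of 1 group that differ from each other, and what set them apart was not tested. Cell type markers differed between exposed 3 and 6 too. The median deviation of 6 meningeal and fibroblast markers was 0.88 in hippocampus exposed 3 and -0.34 in hippocampus exposed 6. In cortex it was 0.01 and -0.35. Col1a1 went the other way in each tissue and Col1a2 in cortex. Cortical neuron markers stood at -0.28 and -0.97 in hippocampus and at 0.659 and 0.539 in cortex. Oligodendrocyte markers went the other way in hippocampus (-0.175 and 0.151) but not in cortex (0.085 and -0.319). Astrocyte markers stood at 0.714 and 0.344 in hippocampus and at -0.324 and -0.488 in cortex. Endothelial markers stood at 0.331 and -0.111, and at 0.108 and 0.001. Hippocampal neuron markers went the other way in each tissue. Single astrocyte, endothelial and neuron markers went against their medians. Their part in the members' values was not tested.

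The first comparison between groups asked which ribosomal protein genes differed between exposed and control hippocampus. No member passed the threshold of limma adjusted p under 0.05, against 0.00675% of all probe sets, which is 1 probe set. At unadjusted p under 0.05 there was 1 member, against 5.81% of all probe sets. The difference was above 0 in 45 of 60 members (75%), against 50.7% of all probe sets, and its median was 0.16, against 0.01 over all probe sets. Both exposed arrays lay above both controls in 13 members (21.7%), against 16.7% of all probe sets, and below both in 0, against 14%.

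In the small subunit 19 of 22 genes had a difference above 0 in hippocampus (median 0.26), and in the large subunit 24 of 33 (median 0.14). Among the 5 tested genes set apart it was 2 of 5 (median -0.05). Without hippocampus exposed 3 the median over the members was -0.08, and without hippocampus exposed 6 it was 0.42. The members' hippocampal difference thus changed sign with the exposed array that was kept. Hippocampus control 1, the array high in choroid plexus genes, is 1 of the 2 controls here. All 9 tested choroid plexus markers had lower values in exposed hippocampus (median difference -3.2, none called), and their part in the members' values was not tested. Whether fewer cells of a type or less RNA per cell gave such a difference cannot be told apart in whole tissue.

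Rps19, a small subunit protein whose human gene is mutated in Diamond-Blackfan anaemia, measured 10.01 and 9.83 in hippocampus exposed 3 and 6, against 8.47 and 9.66 in hippocampus control 1 and 6. In cortex it measured 9.73 and 9.59 in exposed 3 and 6, against 8.41 and 9.18 in control 1 and 6. Both exposed arrays lay above both controls in each tissue, and control 1 was the lowest array in each. The difference in hippocampus was 0.86 (SE 0.37, 95% interval 0.04 to 1.67, limma adjusted p = 0.85), and in cortex 0.86 (SE 0.37, interval 0.05 to 1.68, limma adjusted p = 0.80). Averaged over the tissues, exposed arrays had a mean of 9.79 and controls a mean of 8.93 (difference 0.86, SE 0.29, unadjusted p = 0.0134, limma adjusted p = 0.81). Without hippocampus control 1 the difference in hippocampus was 0.26, the lowest value from leaving out an array there, and it was up to 1.45 without the other control. Leaving out arrays in cortex gave 0.48 to 1.25.

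Rps24, another small subunit gene mutated in that human anaemia, measured 15.55 and 15.43 in hippocampus exposed 3 and 6, against 14.79 and 15.27 in hippocampus control 1 and 6. In cortex it measured 15.37 and 15.4 in exposed 3 and 6, against 14.62 and 15.16 in control 1 and 6. Its exposed arrays lay close together and above both controls in each tissue. The differences were 0.46 in hippocampus (SE 0.24, limma adjusted p = 0.87) and 0.49 in cortex (SE 0.24, limma adjusted p = 0.81). Without control 1 of the tissue they were 0.22 in hippocampus and 0.225 in cortex.

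Other members with the smallest unadjusted p in hippocampus were Rps14 (difference 0.56, SE 0.33), Rpl3, a protein of the peptidyl transferase centre (0.36, SE 0.22), Rps23, of the decoding centre (0.32, SE 0.20), and the large subunit gene Rpl35 (0.44, SE 0.28). None of these passed, with limma adjusted p of 0.90 to 0.91. On the side of lower values stood Rpl23, which binds the p53 regulator Mdm2 (-0.28, SE 0.21), Rps19bp1 (-0.30, SE 0.34), Rpl36a (-0.30, SE 0.39), Rpl31 (-0.19, SE 0.23), Rpl41 (-0.19, SE 0.31) and Rpl10a (-0.14, SE 0.33). Rpl36a shows how single arrays set such values. It measured 11.83 and 10.91 in hippocampus exposed 3 and 6, against 12.29 and 11.04 in control 1 and 6, and without control 1 its difference was 0.33.

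**Figure D3:**
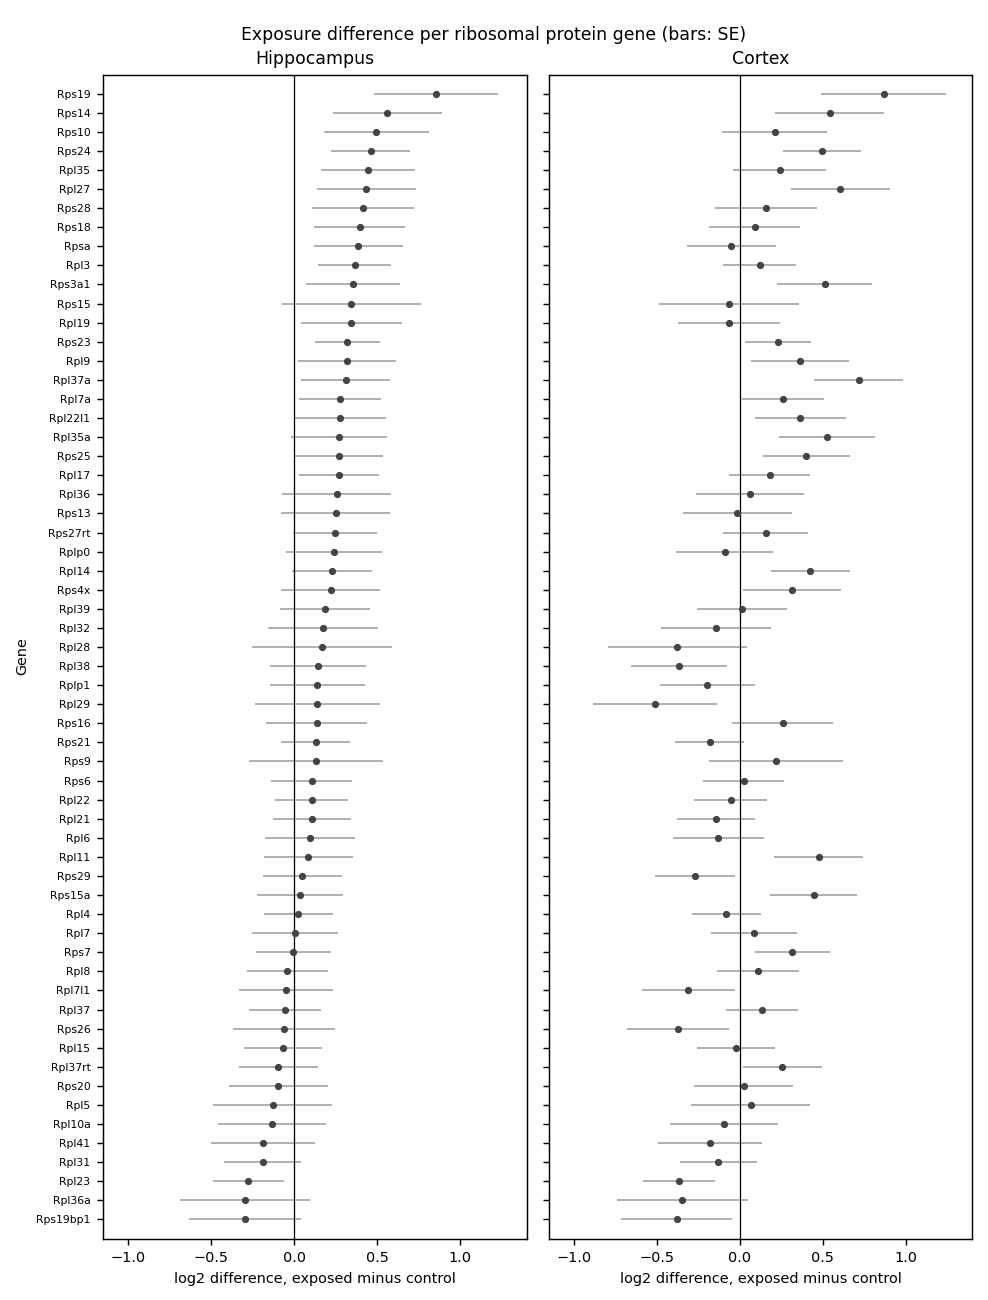
Points give the log2 difference, exposed minus control, for each of the 60 tested genes in hippocampus (left) and cortex (right), with bars of 1 SE and genes in the order of their hippocampal difference. In hippocampus 45 points lie above 0 and in cortex 35, Rps19 is at 0.86 in each, and no gene passed the adjusted threshold.

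The second comparison set exposed against control cortex. No member passed the threshold of limma adjusted p under 0.05, against 0.00675% of all probe sets, and 2 members had unadjusted p under 0.05, against 6.18% of all probe sets. The difference was above 0 in 35 of 60 members (58.3%), against 46.6% of all probe sets, and its median was 0.07, against -0.02 over all probe sets. Both exposed arrays lay above both controls in 14 members (23.3%), against 17.1% of all probe sets, and below both in 3 (5%), against 21.4%. Small subunit genes had a difference above 0 in 16 of 22 (median 0.21) and large subunit genes in 16 of 33 (median -0.02). Without cortex control 1 the median over the members was -0.1, and without cortex exposed 3 it was -0.11.

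Rpl37a, a zinc-binding large subunit protein, measured 11.11 and 11.64 in cortex exposed 3 and 6, against 10.48 and 10.84 in cortex control 1 and 6. Both exposed arrays lay above both controls, and exposed 6 was the higher of them, opposite to most members. The difference was 0.71 (SE 0.27, 95% interval 0.13 to 1.3, limma adjusted p = 0.76). In hippocampus it measured 11.37 and 11.34 in exposed 3 and 6, against 10.82 and 11.27 in control 1 and 6, with a difference of 0.31 (SE 0.27, limma adjusted p = 0.96).

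Rpl27, a large subunit gene described with the tissues below, had a difference of 0.60 in cortex (SE 0.30), with limma adjusted p = 0.81. Rpl35a, also linked to Diamond-Blackfan anaemia in humans, differed by 0.53 (SE 0.29) and the small subunit gene Rps3a1 by 0.51 (SE 0.28), each with limma adjusted p = 0.81. Members with lower values in exposed cortex were Rpl29 (-0.51, SE 0.37), Rps19bp1 (-0.38, SE 0.34), Rps26 (-0.37, SE 0.31), Rpl23 (-0.36, SE 0.21), Rpl38 (-0.36, SE 0.29), which in mouse embryos controls translation of Hox messenger RNAs, and Rps29 (-0.27, SE 0.24). None of these passed, with limma adjusted p of 0.82 to 0.89. Rpl23 measured 13.88 and 13.93 in exposed 3 and 6, against 14.25 and 14.29 in control 1 and 6. Its exposed arrays lay below both controls and within 0.05 of each other.

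In 5 members, Rpl27, Rpl37a, Rps19, Rps23 and Rps24, both exposed arrays lay above both controls in each tissue. They are 8.33% of the 60 members, against 4.17% of all probe sets, and the difference in share was not tested. They make up 38.5% of the 13 such members in hippocampus and 35.7% of the 14 in cortex. Averaged over the tissues, with the arrays of 1 arm and number combined first, no member passed the threshold of limma adjusted p under 0.05, against 0.00675% of all probe sets. The 3 members with unadjusted p under 0.05 were Rps19, Rpl37a (0.51, SE 0.23) and Rps24 (0.48, SE 0.21), against 5.97% of all probe sets. The averaged difference was above 0 in 40 of 60 members (66.7%, median 0.13), against 49.1% of all probe sets. Without the exposed arrays numbered 3 the median was -0.08, and without those numbered 6 it was 0.34. Overlap was judged here on the means over the tissues per arm and number, not on single arrays. Exposed means lay above both control means in 15 members (25%), against 17.3% of all probe sets, and below in 2 (3.33%), against 17.8%.

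The difference in exposure between the tissues was tested directly. No member passed the threshold of limma adjusted p under 0.05 and none had an unadjusted p under 0.05, against 0% and 3.45% of all probe sets. The widest positive value was that of Rpl29, with a difference of 0.14 in hippocampus and -0.51 in cortex (difference of differences 0.65, SE 0.53, 95% interval -0.50 to 1.8). The widest negative value was that of Rps15a, with 0.04 in hippocampus and 0.44 in cortex (-0.41, SE 0.37, interval -1.21 to 0.39). These intervals leave room for differences of either sign.

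Some members have roles beyond the shared one. Rps6, the small subunit protein phosphorylated by S6 kinases downstream of mTORC1, differed by 0.10 in hippocampus (SE 0.24) and 0.03 in cortex (SE 0.24). Rpsa, which also serves as a laminin receptor precursor, differed by 0.39 in hippocampus (SE 0.27) and -0.05 in cortex (SE 0.27). Of the stalk, which recruits translation factors to the large subunit, Rplp0 differed by 0.24 in hippocampus (SE 0.29) and -0.09 in cortex (SE 0.29), and Rplp1 by 0.14 (SE 0.29) and -0.20 (SE 0.29). Rpl22, which in mice represses its paralogue Rpl22l1, differed by 0.10 in hippocampus (SE 0.22) and -0.05 in cortex (SE 0.22). Limma adjusted p for these values lay at 0.93 or above, and the intervals of all of them include 0.

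The tissues themselves were compared within each arm and over both. With 4 hippocampal against 4 cortical arrays, 10 of 60 members (16.7%) passed the threshold of limma adjusted p under 0.05, against 31.3% of all probe sets. Of these, 8 were higher in hippocampus, 6 in the large and 2 in the small subunit (13.3% of members, against 19.5% of all probe sets), and 2 were lower (3.33%, against 11.9%). The difference was above 0 in 33 of 60 members (55%), against 58.1% of all probe sets. The median difference of the members was 0.09, against 0.11 over all probe sets. In 10 members all hippocampal arrays lay above all cortical ones (16.7%), against 19% of all probe sets, and in 1 below (1.67%), against 11.5%. A smaller share of ribosomal protein genes than of all probe sets thus passed, and no test of that difference in share was made.

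Rpl27, a large subunit protein whose gene is mutated in some human cases of Diamond-Blackfan anaemia, had the widest tissue difference. It measured 8.88 and 8.77 in exposed and 8.13 and 8.65 in control hippocampus, against 6.97 and 6.95 in exposed and 6.05 and 6.66 in control cortex. The lowest hippocampal array lay above the highest cortical one. Rpl27 was 3.86-fold higher in hippocampus (1.95 on the log2 scale, SE 0.21, limma adjusted p = 3e-05), with a 95% interval of 1.49 to 2.41. It also passed within control arrays (2.04, SE 0.30, limma adjusted p = 0.00062) and within exposed arrays (1.86, SE 0.30, limma adjusted p = 0.0015).

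Rpl3 measured 14.75 and 14.76 in exposed and 14.24 and 14.54 in control hippocampus, against 13.81 and 13.7 in exposed and 13.43 and 13.84 in control cortex. All hippocampal arrays lay above all cortical ones, and it was 1.84-fold higher (log2 difference 0.88, SE 0.15, limma adjusted p = 0.0012). Within exposed arrays the difference was 1 (SE 0.22, limma adjusted p = 0.0097) and within control arrays 0.76 (SE 0.22, limma adjusted p = 0.033).

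Rps25, which some viral RNAs need to start translation without a cap, measured 13.42 and 12.77 in exposed and 12.61 and 13.04 in control hippocampus, against 12.29 and 12.37 in exposed and 11.83 and 12.03 in control cortex. It was higher in every hippocampal array (log2 difference 0.83, SE 0.18, limma adjusted p = 0.0053). Within control arrays it passed too (0.90, SE 0.26, limma adjusted p = 0.035), while within exposed arrays it did not (0.77, SE 0.26, limma adjusted p = 0.073).

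Rps21, a small subunit gene, went the other way. It measured 13.76 and 13.67 in exposed and 13.56 and 13.61 in control hippocampus, against 14.18 and 14.28 in exposed and 14.23 and 14.59 in control cortex. All 4 hippocampal arrays lay below all cortical ones (log2 difference -0.67, SE 0.15, limma adjusted p = 0.0048). Within control arrays the difference was -0.82 (SE 0.21, limma adjusted p = 0.017) and within exposed arrays -0.52 (SE 0.21, limma adjusted p = 0.12). The large subunit gene Rpl19 was the other lower one (-0.67, SE 0.22, limma adjusted p = 0.033). Its hippocampal values of 14.91 to 15.84 overlapped its cortical values of 15.6 to 16.35.

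The other members that were higher in hippocampus were the large subunit genes Rpl7a (log2 difference 0.70, SE 0.17), Rpl14 (0.58, SE 0.17), Rpl37 (0.50, SE 0.15) and Rpl4 (0.43, SE 0.15), whose protein lines the exit tunnel, and the small subunit gene Rps28 (0.68, SE 0.22). Their limma adjusted p lay between 0.0098 and 0.041, and in each all hippocampal arrays lay above all cortical ones. In the fit over both arms, the calls of Rps21, Rpl14, Rpl37, Rps28, Rpl19 and Rpl4 were lost under at least 1 alternative. Within control arrays 4 of 60 members passed (6.67%), against 17.7% of all probe sets, with 3 higher in hippocampus (5%, against 10.1%) and 1 lower (1.67%, against 7.63%). Within exposed arrays 2 of 60 passed (3.33%), against 14.5%, with both higher (3.33%, against 9.25%) and none lower (against 5.22%). The count within control arrays was 1 without cortex control 6 or hippocampus control 6, and 2 without cortex control 1 or without both arrays high in Ttr. Within exposed arrays it was 1 without cortex exposed 6. The within-arm calls of Rpl3, Rps25 and Rps21 were lost in several of these fits, which leave 1 array in a group. With all arrays kept, the calls of Rpl3 and Rps25 within control arrays were also lost under 2 alternatives. Limma adjusted p was 0.09 and 0.077 under median centring, and 0.071 and 0.059 without the trend. Rpl3 was also lost when only the 4 control arrays were fitted (limma adjusted p = 0.062). Without cortex control 1, the difference within control arrays was 0.55 for Rpl3 and 0.795 for Rps25. Without cortex control 6 it was -0.645 for Rps21. Within exposed arrays it was 0.945 for Rpl3 without cortex exposed 6, and 0.995 without hippocampus exposed 6, where its call was lost too. For these fits the share of all probe sets that passed was not computed.

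**Figure D4:**
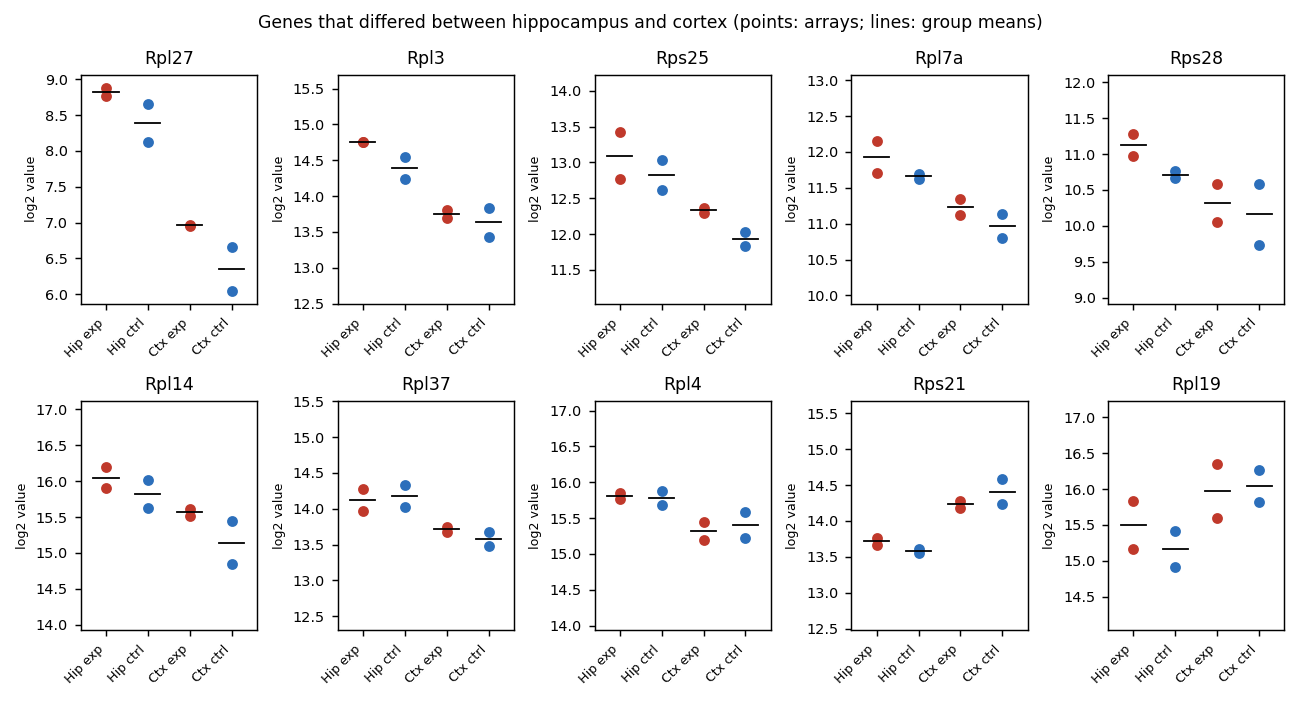
Each panel shows the log2 values of a gene on its own vertical axis in exposed hippocampus, control hippocampus, exposed cortex and control cortex, with points for arrays and lines for group means. In Rpl27 the hippocampal arrays lie at 8.13 or above and the cortical ones at 6.97 or below, and Rpl19 is the gene whose tissues overlap.

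Between the tissues, none of these members passed. Rps6 was at -0.26 (SE 0.17), Rplp0 at -0.11 (SE 0.21), Rpsa at -0.06 (SE 0.19) and Rplp1 at -0.01 (SE 0.20) on the log2 scale, hippocampus minus cortex. Rpl22 was at 0.40 (SE 0.15, limma adjusted p = 0.072), with all hippocampal arrays above all cortical ones, and missed the threshold. None of the 5 tested genes set apart passed.

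Genes that act with the ribosome were described beside it. In exposed against control hippocampus none of 27 translation initiation factors, 12 elongation and termination factors, 50 ribosome biogenesis factors, 10 genes of RNA polymerase I transcription and 13 genes of mTORC1 and TOP messenger RNA control passed in either direction. The same held in cortex. Their median differences in hippocampus were 0.03, 0.09, 0.01, 0.22 and 0.07 in that order. Mitochondrial ribosomal protein genes had a median of -0.04 in hippocampus and -0.11 in cortex, and none of 75 passed in either tissue. The p53 targets known to respond to ribosomal stress had a median of -0.21 in hippocampus and -0.17 in cortex, with none of 8 passing.

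Pdcd4, an inhibitor of translation initiation that S6 kinase marks for degradation, measured 14.1 and 14.05 in hippocampus exposed 3 and 6, against 14.8 and 14.98 in hippocampus control 1 and 6. In cortex it measured 13.34 and 13.6 in exposed 3 and 6, against 14.5 and 13.76 in control 1 and 6. Exposed arrays lay below controls in both tissues, with differences of -0.81 in hippocampus (SE 0.25, limma adjusted p = 0.77) and -0.66 in cortex (SE 0.25, limma adjusted p = 0.78). Bop1, a factor of large subunit assembly, differed by 1.06 in hippocampus (SE 0.34, limma adjusted p = 0.77) and was measured at 5.65 and 5.39 in exposed 3 and 6, against 4.92 and 4 in control 1 and 6. Neither gene passed.

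Between tissues, the genes named from these lists are among the 4 with the smallest p in theirs. Pabpc1, the poly(A)-binding protein whose own messenger RNA is of the TOP class, was higher in hippocampus (log2 difference 1.25, SE 0.16, limma adjusted p = 0.0001). Eif4g3, of the same list, was lower (-1.08, SE 0.19, limma adjusted p = 0.0012). Eef1a2, the elongation factor form of mature neurons, was lower (-0.95, SE 0.13, limma adjusted p = 0.00018), and Eef1a1 was higher (0.39, SE 0.12, limma adjusted p = 0.024). Tpt1, of the same list, was lower (-0.57, SE 0.15, limma adjusted p = 0.013). Eif4ebp1 was lower in hippocampus (-1.765, SE 0.211, limma adjusted p = 6.6e-05), as was Deptor, an inhibitor of mTOR (-2.18, SE 0.33, limma adjusted p = 0.00038). Of the same list, Myc was higher (1.242, SE 0.241, limma adjusted p = 0.0022), and so was Pdcd4 (0.68, SE 0.18, limma adjusted p = 0.012). Of the initiation factors 7 of 27 passed as higher and 1 as lower, and of the biogenesis factors 8 of 50 and 2. Of the genes of mTORC1 and TOP messenger RNA control 3 of 13 passed as higher and 2 as lower. Among all probe sets 19.5% passed as higher and 11.9% as lower.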

How the data were processed

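Total RNA was measured on 8 arrays, 2 per tissue and arm, and each array was taken as 1 sample. The deposited log2 values per probe set had been normalized by the authors with RMA, per the submitters' processing notes. Which version was run, and whether it took all arrays at once, is not given in the sources used here. Their log base was taken from the range of the values, 1.59 to 19.93. No detection or saturation value was available, the number of arrays limits the precision, and levels of different probe sets were not compared.

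Of 22206 probe sets, the lowest 33.3% by mean (below 3.937) were left out and 14804 tested. A model with a mean per tissue and arm was fitted with limma 3.58.1 in R 4.3.3 (lmFit, eBayes with trend), two-sided, with Benjamini-Hochberg adjustment over all tested probe sets within each of 7 comparisons. Fits were tested on simulated data. Symbols came from GEO's platform annotation, and all 61 members matched RefSeq by Entrez identifier. The members and lists were chosen with earlier results of these data known. Named members were those past the threshold, the 6 smallest p per direction where fewer than 10 passed, the widest differences, and Rps6, Rpsa, Rplp0, Rplp1, Rps19 and Rpl22. Members with the largest gaps between exposed arrays were picked after their values were seen. Alternatives covered the filter, normalization, trend, weights, blocks and left-out arrays. Ribosomal protein genes have many processed copies in the genome, and whether probes detect these was not tested.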

Additional observations from a re-analysis of the deposited data

How the results depend on the processing

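Precision is limited by 2 arrays a group, and signal over background could not be judged without detection values. Each of 98 results was recomputed under alternatives. Of 1664 values, 1536 kept direction and side of the threshold, 57 lost the threshold, 19 gained it and 52 changed sign, 38 of these when an array was left out; the cause was not tested. No member passed in any exposure comparison under any alternative run. The number of members that passed between tissues was 2 without the trend in control arrays (4 as reported) and 6 over both arms (10 as reported). With both arrays high in Ttr left out it was 2 in control arrays, and the exposure averaged over tissues could not be fitted. Leaving out single arrays gave 1 to 4 in control arrays, 1 to 2 in exposed arrays and 7 to 11 over both. The median member difference ran from -0.08 to 0.425 for exposure in hippocampus, -0.11 to 0.278 for exposure in cortex, -0.084 to 0.34 for their average, -0.14 to 0.263 for their difference, -0.113 to 0.225 for tissue in control arrays and -0.19 to 0.365 for tissue in exposed arrays. Median centring moved every tissue difference over both arms by -0.15, to a member median of -0.06.

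With the replicate number as a block, 13 members passed in control arrays, 7 in exposed arrays and 21 over both. The share of all probe sets that passed was not computed under the block or the other alternatives above. Their counts are therefore not a result about ribosomal protein genes. The labels do not say that a number marks an animal, so the block is reported only here. Across probe sets, the gaps between the 2 arrays of an arm correlated between the tissues at r of 0.276 in exposed and -0.001 in control arrays. Across the 60 members r was 0.65 and 0.297. The control value includes Ttr, which was higher in control 6 in cortex and in control 1 in hippocampus. These values cannot tell whether a number marks an animal. The block brought Rpl22 over both arms to an adjusted p of 0.041 and Rps25 in exposed arrays to 0.026 (limma). The exposure averaged over tissues did combine arrays of 1 arm and number first, since these may come from 1 animal, and with no replicate block its count of members that passed was again 0 and its median 0.129.

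Small differences changed sign. Exposure in cortex was 0.007 and 0.006 for Rpl22 and 0.025 and 0.005 for Rpsa under quantile and cyclic loess normalization, and Rplp1 between tissues was 0.142 and 0.059. Without both arrays high in Ttr, exposure in cortex was 0.085 for Rpsa, 0.155 for Rplp0, 0.015 for Rplp1 and 0.065 for Rps29, exposure in hippocampus 0.33 for Rpl36a and 0.225 for Rpl41, the difference between tissues -0.11 for Rps29, and the tissue difference 0.013 for Rpsa. Leaving out single arrays gave ranges across 0. For exposure in cortex they were Rpl22 -0.215 to 0.105, Rpl29 -1.095 to 0.075, Rplp0 -0.335 to 0.155, Rplp1 -0.45 to 0.06, Rps29 -0.605 to 0.065, Rps6 -0.255 to 0.305 and Rpsa -0.185 to 0.085. For exposure in hippocampus they were Rpl10a -0.725 to 0.455, Rpl22 -0.015 to 0.225, Rpl31 -0.485 to 0.105, Rpl36a -0.92 to 0.33, Rpl41 -0.605 to 0.225, Rplp1 -0.24 to 0.52 and Rps6 -0.165 to 0.375. For exposure averaged over tissues they were Rpl36a -0.66 to 0.02, Rpl41 -0.458 to 0.088 and Rps26 -0.552 to 0.122. For the difference of exposure between tissues they were Rpl35a -0.575 to 0.065 and Rps29 -0.015 to 0.655. For hippocampus minus cortex they were Rplp0 -0.233 to 0.012, Rplp1 -0.202 to 0.178, Rps19 -0.032 to 0.563 and Rpsa -0.243 to 0.117. Rps19 between tissues was 0.755 without both arrays high in Ttr, against 0.265 with all arrays.

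The counts of members by exposed and control array, and of members highest in exposed 3, were recomputed under 3 normalizations chosen after seeing the data. Exposed 3 exceeded exposed 6 in 55 to 57 members in hippocampus and 44 to 45 in cortex, and was highest in 45 to 49 and 24 to 37.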
